A study of Mus musculus with 2 samples.

Results

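The genes of RNA polymerase II, Mediator and the general transcription factors were compared between ILC progenitors labelled as Yeats4-deficient and wild-type ILC progenitors of the mouse. ILC progenitors are bone marrow cells that give rise to innate lymphoid cells, and Yeats4 encodes a chromatin reader with a YEATS domain. Per the labels' protocols and the design text, the cells were sorted as lineage-negative, CD127-positive, α4β7-positive cells with intermediate c-Kit and Sca-1. The wild-type mice were littermates. The agent or Cre driver behind the deletion, the age of the mice and how many were pooled were not stated in the labels used here. Each genotype has 1 array, so no difference below has a replicate error or a test. Members were the genes whose annotated symbol is Polr2a to Polr2m, Med, Taf or Gtf2a to Gtf2h with the numbers and letters of that family, 71 of the 19505 genes named on the array. Of the 79 symbols listed for these families, 8 are not in the annotation used and were not analysed here. They are Polr2a, Polr2m, Med6, Med20, Taf1, Taf9, Taf1d and Gtf2h2.

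Transcription of protein-coding genes starts when RNA polymerase II and the general factors assemble at a promoter. TFIID, built from TBP and its associated factors (TAFs), recognises the promoter, TFIIA and TFIIB stabilise it, TFIIF escorts the polymerase, and TFIIE and TFIIH open the DNA. Mediator bridges transcription factors bound at enhancers and the polymerase. Its head and middle modules, held by the scaffold Med14, contact the polymerase, its tail receives transcription factors, and its kinase module binds reversibly. In yeast the YEATS domain protein Taf14 is a subunit of TFIID and TFIIF, whereas Yeats4 is known as a subunit of the SRCAP and Tip60 complexes.

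Every value is a log2 RMA expression value, and every difference is the knockout-labelled array minus the wild-type array on that scale. The probe set of Yeats4 read 5.90 on the knockout-labelled array and 5.96 on the wild-type array. Its level therefore does not check the label, since the position of its probes relative to the deleted part is not known here, and that array is named only by its label below. Genes with a mean of both arrays of at least 2.88 were compared, which kept 10881 genes and 68 of the 71 members. Taf7l, Taf13 and Taf1a lay under that level. The median difference of all 10881 genes was 0.08, and it changed with level, from -0.04 at means under 4 to 0.17 between 6 and 7. A gene under the 95th percentile of the negative control probe sets (4.73 on the knockout-labelled array, 4.80 on the wild-type array) on both arrays is called near background and gets no fold. That percentile is the control level below. For a gene under it on 1 array, the fold is a lower limit against that array's level.

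Most of the machinery read slightly higher on the knockout-labelled array, by little more than genes of like level. Mediator's head module stood highest of its modules as measured. With values raised to the higher of the 2 control levels, the head median was 0.39, beside 0.37 for the tail. Of the 68 members, 51 (75%) lay above 0, against 58.2% of all genes, and their median was 0.22. Set against the median of the 500 genes nearest in level, 43 of the 68 (63.2%) lay above it, against 49.8% of all genes. Only Taf11, near background on both arrays, was at least 2-fold higher, which is 1.47% of the members against 1.56% of all genes, and no member was 2-fold lower, against 0.781% of all genes. At least 1.5-fold, 10 members were higher and 2 lower, or 14.7% and 2.94%, against 9.16% and 5.16% of all genes. Among the 42 members above the control level on both arrays, 31 (73.8%) lay above 0, against 65.7% of all genes so detected. In these bulk samples, more RNA per cell and more cells of a type that expresses a gene cannot be told apart.

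**Figure D1:**
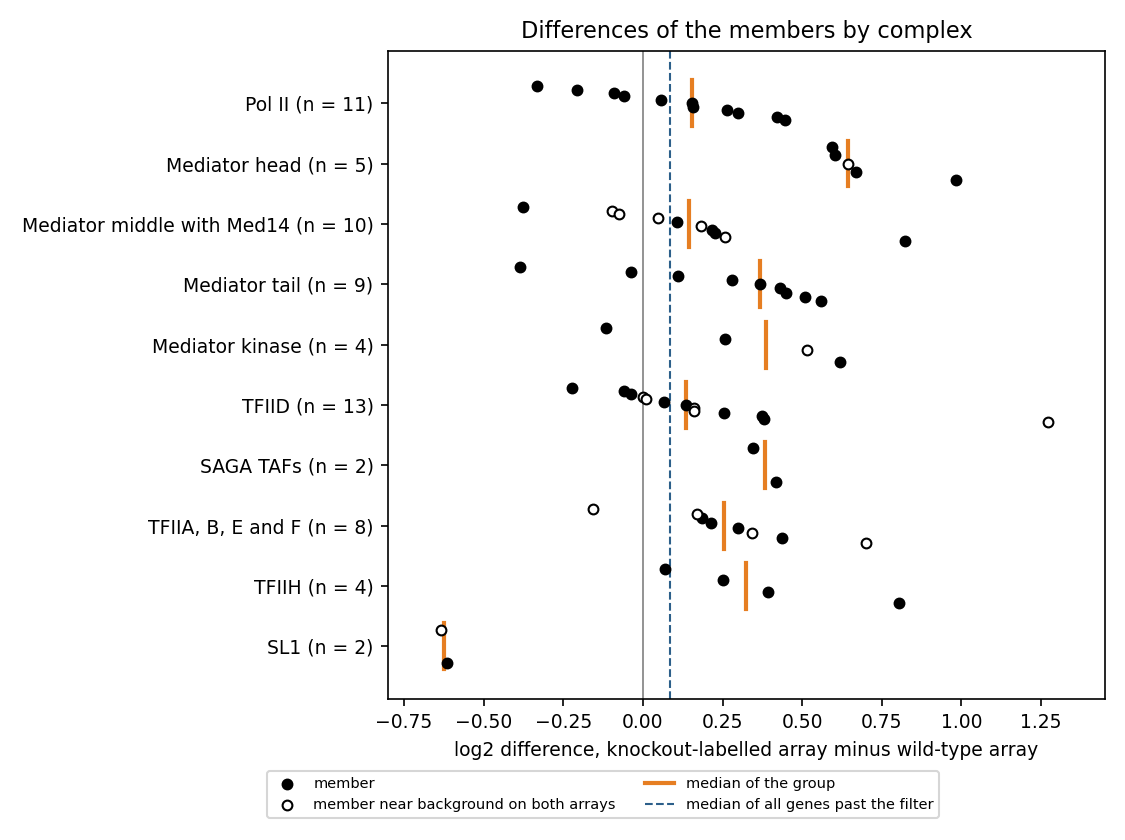
Log2 difference of each member past the level filter (horizontal axis, knockout-labelled array minus wild-type array) by complex or Mediator module, where open points are near background on both arrays. The 5 head subunits lie between 0.59 and 0.98, and both SL1 subunits lie under -0.6.

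The 5 measured subunits of the Mediator head all read higher on the knockout-labelled array, with a median of 0.65 and a range of 0.59 to 0.98. Each lay above the median of its neighbours in level, as did 49.8% of all genes. As measured, 4 of the 5 had fewer than 50 of the 500 nearest genes above them, against 1079 of all 10881 genes. Of those 4, only Med17, with 49 genes above it, was over the control level on both arrays. Med17, the central scaffold of the head, read 5.52 on the knockout-labelled array and 4.91 on the wild-type array, 1.52-fold higher, with a difference of 0.60 and a local spread of 0.34. That spread is the scaled median absolute deviation of the differences of the 500 genes nearest in mean level, a description of these arrays and not a test. Med11, which pairs with Med22 in the head, read 5.69 and 5.10 on the knockout-labelled array and the wild-type array, 1.51-fold higher (0.59, local spread 0.39). Med22 read 5.19 on the knockout-labelled array and 4.21 on the wild-type array, where it was under the control level, so it was at least 1.31-fold higher (0.98 as measured, local spread 0.46). Only 10 of its 500 neighbours in level had a higher difference. Med8, which tethers Med18 and Med20 to the head, read 4.81 on the knockout-labelled array, just above that array's control level of 4.73, and 4.14 on the wild-type array, under it (0.67 as measured). Med18, near background on both, read 4.35 on the knockout-labelled array and 3.71 on the wild-type array (0.65). Only Med11 and Med17 were thus measured above background on both arrays, and with all values raised to the higher of the 2 control levels the head median was 0.39. The tail, with all 9 subunits above the control level on both arrays, had a median of 0.37.

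The promoters of the head genes are shown because these genes read higher together. Promoter windows from RefSeq (GRCm38.p6) were available for 4 of the 5, on different chromosomes, each running from 250 bases before to 50 bases after the start. No window was available for Med8, which lies on chromosome 4, as does Med18. Med11 lies at chr11:70451668-70451967 (plus strand), Med17 at chr9:15279857-15280156 (minus), Med18 at chr4:132463872-132464171 (minus) and Med22 at chr2:26910593-26910892 (minus). Capitals mark matches, searched on both strands. The ETS motif is written CCGGAAG. That of NRF1, its core only, is TGCGCA. For the CCAAT box it is those letters, for the GC box of SP factors GGGCGG, for YY1 AANATGGC and for the TATA box of core promoters TATAAA.
Med11: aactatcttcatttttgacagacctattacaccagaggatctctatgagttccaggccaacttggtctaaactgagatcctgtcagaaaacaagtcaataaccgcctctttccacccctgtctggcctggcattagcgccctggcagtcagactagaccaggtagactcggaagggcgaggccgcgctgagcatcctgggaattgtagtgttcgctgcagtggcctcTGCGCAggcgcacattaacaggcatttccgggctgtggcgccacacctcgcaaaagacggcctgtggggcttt
Med17: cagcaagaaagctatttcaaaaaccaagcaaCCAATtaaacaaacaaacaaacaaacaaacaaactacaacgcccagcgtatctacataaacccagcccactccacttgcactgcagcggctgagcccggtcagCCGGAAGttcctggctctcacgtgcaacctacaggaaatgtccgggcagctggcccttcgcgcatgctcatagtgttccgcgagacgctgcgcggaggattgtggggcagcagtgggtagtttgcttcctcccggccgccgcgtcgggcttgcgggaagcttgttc
Med18: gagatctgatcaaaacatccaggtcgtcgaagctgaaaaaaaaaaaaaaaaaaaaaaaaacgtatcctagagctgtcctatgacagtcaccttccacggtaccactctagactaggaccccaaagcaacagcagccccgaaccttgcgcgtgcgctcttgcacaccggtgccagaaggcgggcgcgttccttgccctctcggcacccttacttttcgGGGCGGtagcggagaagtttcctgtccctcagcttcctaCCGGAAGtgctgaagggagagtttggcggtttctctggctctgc
Med22: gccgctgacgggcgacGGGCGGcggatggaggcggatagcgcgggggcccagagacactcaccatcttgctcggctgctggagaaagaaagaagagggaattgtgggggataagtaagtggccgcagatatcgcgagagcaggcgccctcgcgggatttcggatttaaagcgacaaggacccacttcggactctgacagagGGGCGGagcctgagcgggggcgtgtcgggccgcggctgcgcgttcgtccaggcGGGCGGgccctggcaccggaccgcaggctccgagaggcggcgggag
No motif was in all 4 windows. The ETS motif was in those of Med17 and Med18, the NRF1 core in that of Med11, and the GC box in those of Med18 and Med22, while the TATA box and the YY1 motif were in none. The Med22 start lies beside that of Rpl7a, a ribosomal protein gene on the opposite strand, which read 9.77 on the knockout-labelled array and 9.66 on the wild-type array (0.11).

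**Figure D2:**
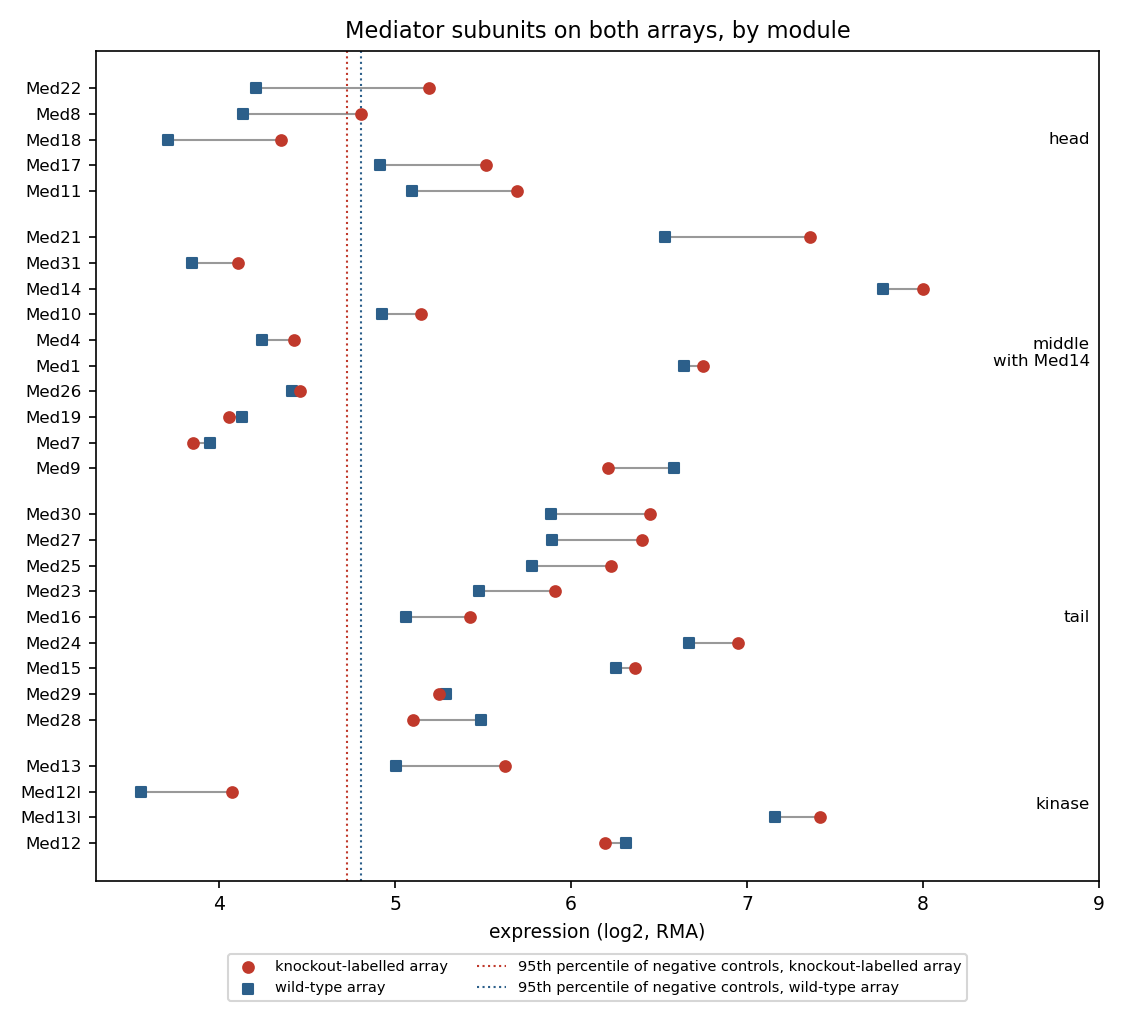
Expression (log2, RMA) of the 28 measured Mediator subunits on the knockout-labelled array (circles) and the wild-type array (squares), by module, with the 95th percentile of the negative controls of each array dotted. All 5 head subunits are to the right on the knockout-labelled array, with 3 of them under the dotted level on the wild-type array.

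The middle module with the scaffold Med14 was mixed. Its 10 subunits had a median of 0.14 (range -0.37 to 0.82), 7 lay above 0 and 5 were near background on both arrays. Med21, a conserved subunit at the hinge of the middle module, stood apart: it read 7.36 on the knockout-labelled array and 6.54 on the wild-type array, 1.77-fold higher (0.82, local spread 0.26). Only 3 of the 500 genes nearest in level had a higher difference. Med7, the partner of Med21 in that hinge, read 3.85 on the knockout-labelled array and 3.95 on the wild-type array, near background on both (-0.10). Med14 read 7.999 on the knockout-labelled array and 7.77 on the wild-type array, a difference of 0.23 that 167 of its 500 neighbours exceeded. Med1, the subunit that nuclear receptors bind, read 6.75 and 6.64 on the knockout-labelled array and the wild-type array, and its difference of 0.11 turned to -0.05 after a loess correction for mean level. Med9 was the lowest of the module, with 6.21 on the knockout-labelled array and 6.58 on the wild-type array, 1.30-fold lower (-0.37, local spread 0.30). Med31 (0.26), Med10 (0.22), Med4 (0.18), Med26 (0.05, negative after centring) and Med19 (-0.08) lay between, and all but Med10 of these were near background.

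For comparison with the head, the Med21 promoter (chr6:146642329-146642628, plus strand, GRCm38.p6) is given with the same motifs in capitals, of which the CCAAT motifs nearest the start lie end to end.
Med21: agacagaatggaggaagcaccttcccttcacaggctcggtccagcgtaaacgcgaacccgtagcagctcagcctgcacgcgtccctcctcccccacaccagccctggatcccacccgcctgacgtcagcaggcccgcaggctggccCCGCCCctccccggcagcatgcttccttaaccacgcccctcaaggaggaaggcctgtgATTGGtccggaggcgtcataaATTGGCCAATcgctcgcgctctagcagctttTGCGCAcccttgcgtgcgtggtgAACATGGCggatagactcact
It held a GC box, 3 CCAAT motifs, an NRF1 core and a YY1 motif, and not the ETS motif of the Med17 and Med18 windows.

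As measured, the tail and kinase modules lay between the middle and the head. All 9 tail subunits were above the control level on both arrays, and their median was 0.37 (range -0.38 to 0.56). Med30 read 6.45 on the knockout-labelled array and 5.89 on the wild-type array (0.56, local spread 0.30). Med27 read 6.40 and 5.89 on the knockout-labelled array and the wild-type array, 1.42-fold higher (0.51), followed by Med25, the subunit that ETV and VP16 activation domains bind (0.45), Med23 (0.43), Med16 (0.37) and Med24 (0.28). Med15, a tail subunit that receives SREBP and SMAD signals, read 6.36 on the knockout-labelled array and 6.25 on the wild-type array, and its 0.11 became -0.04 after the correction for level. Med28 was the lowest of the module, with 5.10 on the knockout-labelled array and 5.49 on the wild-type array, 1.31-fold lower (-0.38, local spread 0.36), while Med29 was at -0.04. In the kinase module the paralogues differed. Med13 read 5.63 on the knockout-labelled array and 5.01 on the wild-type array, 1.54-fold higher (0.62, local spread 0.38), against 0.26 for Med13l. Med12, which activates the kinase, read 6.19 on the knockout-labelled array and 6.31 on the wild-type array (-0.12), and its paralogue Med12l, near background, was at 0.52. The kinase enzymes themselves were Cdk8 (0.17), Cdk19 (0.10, negative after the correction for level) and cyclin C (Ccnc, 0.06, near background and negative after centring). Over all 28 Mediator subunits the median was 0.27 and 22 lay above 0, and without the head the other 23 had a median of 0.23.

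RNA polymerase II itself did not stand above genes of like level. The 11 measured subunits had a median of 0.15, close to the typical median of their neighbours in level (0.15), 7 lay above 0 and none reached 1.5-fold. Polr2b, the second largest subunit, read 7.10 on the knockout-labelled array and 6.95 on the wild-type array, a difference of 0.15 at the middle of its 500 neighbours. Polr2g, part of the stalk, was the highest, with 6.64 on the knockout-labelled array and 6.20 on the wild-type array (1.36-fold, 0.44, local spread 0.30). Its stalk partner Polr2d read 5.002 on the knockout-labelled array and 5.21 on the wild-type array (-0.21), so the stalk pair had opposite signs. The core subunits that form a heterodimer, Polr2c and Polr2j, also differed in sign, at 0.42 and -0.09. Polr2i, which acts in transcript proofreading, was the lowest, with 5.98 on the knockout-labelled array and 6.31 on the wild-type array (1.26-fold lower, -0.33, local spread 0.31). Of the 5 subunits shared with polymerases I and III, 4 lay above 0 as measured. They were Polr2l (0.30), Polr2e (0.26), Polr2h (0.16) and Polr2f (0.06), while Polr2k was at -0.06. Polr2f turned negative after centring and after the correction for level. As measured, the shared subunits had a median of 0.16, beside 0.03 for the 6 others. Wild-type readings of Polr2h and Polr2l fell short of the control level, and with values raised to it their differences were 0.08 and 0.00. The 3 shared subunits detected above background on both arrays had a median of 0.06, and the 6 others, all so detected, kept 0.03. The genes with Polr1 symbols, taken by symbol and not by which polymerases share them, had a median of 0.37 (n = 5). Those with Polr3 symbols had a median of 0.06 (n = 9, of which 5 were near background).

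TFIID showed the same small differences, apart from Taf11. Its 13 members past the filter had a median of 0.13 and 9 lay above 0. Of the 13, 7 (53.8%) lay above the median of their neighbours, against 49.8% of all genes. Taf11, which forms a histone-fold pair with Taf13, read 4.43 on the knockout-labelled array and 3.16 on the wild-type array, the largest measured difference of any member (1.27, local spread 0.43), and only 1 of its 500 neighbours was higher. Both readings were under the control level, so no fold is given, and with values raised to that level the difference was 0.00. Taf13, under the level filter, read 2.77 on the knockout-labelled array and 2.69 on the wild-type array. Taf12 read 5.99 on the knockout-labelled array and 5.61 on the wild-type array (0.38), and its histone-fold partner Taf4, near background, read 4.50 and 4.49 on the same arrays (0.01). Taf3, which binds a histone methylation mark of active promoters, read 5.95 on the knockout-labelled array and 5.57 on the wild-type array, 1.29-fold higher (0.37, local spread 0.32). Taf10, another histone-fold subunit, read 9.49 on the knockout-labelled array and 9.23 on the wild-type array, and 127 of its 500 neighbours, whose median was 0.14, had a difference above its 0.25. The lowest were Taf15, an RNA-binding protein of the FET family (6.52 on the knockout-labelled array, 6.75 on the wild-type array, -0.22), Taf8 (-0.06) and Taf6 (-0.04). Of the rest, Taf5 (0.13) and Taf2 (0.07) were slightly above 0, as were Taf4b (0.16) and Taf9b (0.16), both near background on both arrays. Taf2 and Taf4 turned negative after centring and after the correction for level. Taf7, near background, read 3.52 on both arrays. Tbp, the TATA-binding subunit, is no member by symbol and read 7.26 on the knockout-labelled array and 7.08 on the wild-type array (0.18), the middle of its neighbours. Its relative Tbpl1, near background, was at 0.88.

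Some TAFs by symbol belong to other complexes. Taf5l and Taf6l, paralogues of Taf5 and Taf6 that belong to the SAGA coactivator, were at 0.35 and 0.42, against 0.13 and -0.04 for Taf5 and Taf6. Taf5l read 6.01 on the knockout-labelled array and 5.67 on the wild-type array, and Taf6l read 4.82 and 4.40 on the same arrays, with the wild-type array under the control level and a difference of 0.01 once values were raised to it. Taf1b and Taf1c belong to SL1, the TBP complex of RNA polymerase I. They had the lowest differences as measured, but on readings under the control level, which have no order, and the lowest members above it on both arrays were Med28 (-0.38), Med9 (-0.37) and Polr2i (-0.33). Taf1b read 4.40 on the knockout-labelled array, under the control level, and 5.02 on the wild-type array, at least 1.22-fold lower (-0.61 as measured, local spread 0.45). Taf1c, near background on both, read 3.84 on the knockout-labelled array and 4.48 on the wild-type array (-0.63). Of their 500 neighbours, 23 and 27 had a lower difference than Taf1b and Taf1c. Taf1a, the remaining measured SL1 subunit, was under the level filter, with 1.84 on the knockout-labelled array and 1.76 on the wild-type array. Raising all values to the control level left a median of -0.11 for Taf1b and Taf1c. The Taf1b promoter (chr12:24498331-24498630, plus strand, GRCm38.p6) is shown as that of the SL1 member read above background on 1 array.
Taf1b: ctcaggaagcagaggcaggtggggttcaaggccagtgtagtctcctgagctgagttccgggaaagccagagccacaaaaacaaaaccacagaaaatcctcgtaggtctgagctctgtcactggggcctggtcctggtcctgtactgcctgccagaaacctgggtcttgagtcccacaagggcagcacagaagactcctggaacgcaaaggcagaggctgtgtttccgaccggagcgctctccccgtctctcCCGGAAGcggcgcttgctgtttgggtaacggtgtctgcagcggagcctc
Its only match was an ETS motif at the start, the same letters as in the windows of Med17 and Med18, whose genes differed in the other direction.

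**Figure D3:**
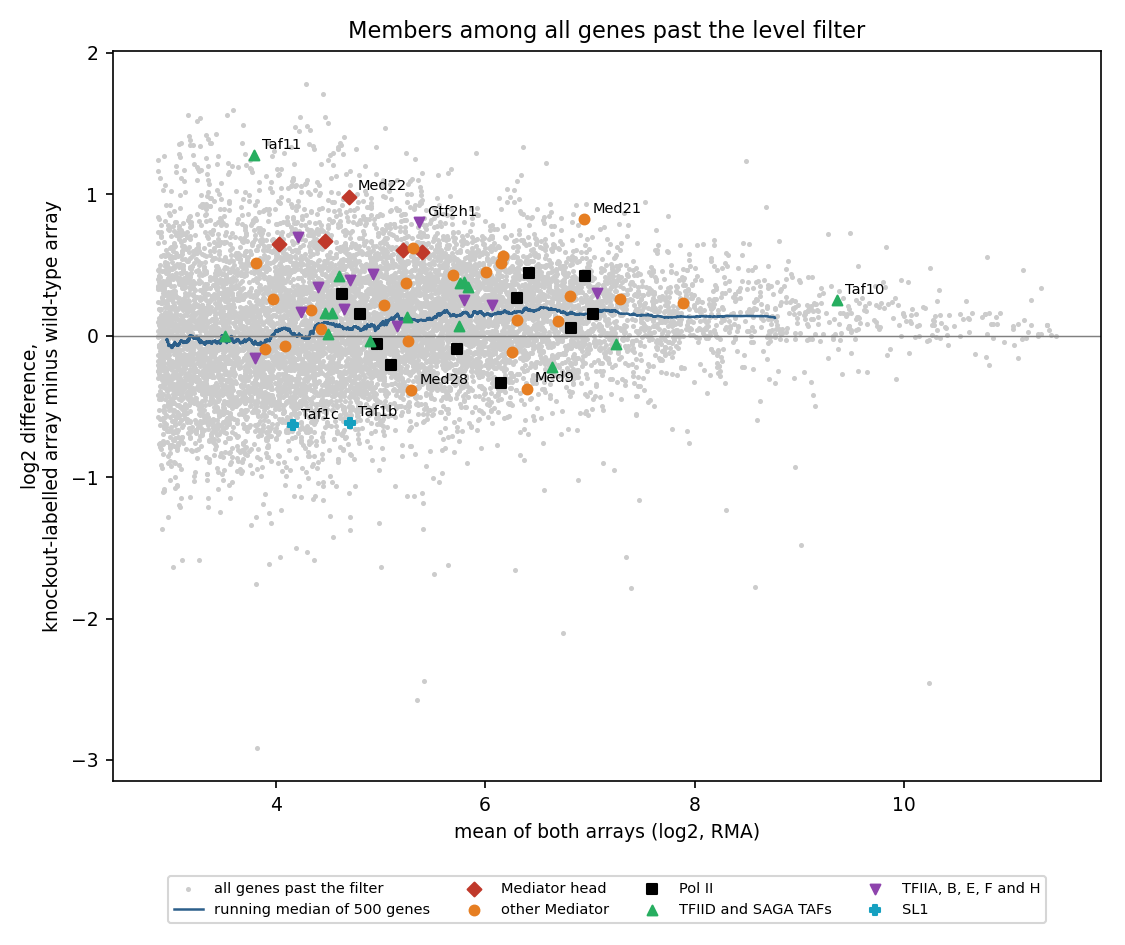
Log2 difference (vertical axis, knockout-labelled array minus wild-type array) against the mean of both arrays (log2, RMA) for the 10881 genes past the filter in grey and the members in colour, with the running median over 500 genes as a line. The scatter narrows with level, from a local spread of 0.43 around Taf11 (1.27 at a mean of 3.80) to 0.26 around Med21 (0.82 at 6.95) and 0.17 around Taf10.

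As measured, nearly all of the remaining general factors read slightly higher on the knockout-labelled array. For TFIIA, TFIIB, TFIIE and TFIIF, 7 of 8 members lay above 0, against 58.2% of all genes, and the median was 0.26. Of the 8, 4 were near background, and with values raised to the control level only 3 lay above 0. Gtf2f2, the small subunit of TFIIF, read 4.57 on the knockout-labelled array and 3.87 on the wild-type array, near background on both (0.70), while Gtf2f1, the large subunit, read 6.17 and 5.96 on the same arrays (0.21). Both TFIIE subunits were above 0. Gtf2e2 read 5.15 on the knockout-labelled array and 4.71 on the wild-type array, under the control level there and so at least 1.27-fold higher (0.44), and Gtf2e1, near background, was at 0.34. Gtf2b, the single subunit of TFIIB, read 4.33 on the knockout-labelled array and 4.16 on the wild-type array, near background on both (0.17). Gtf2a1, the large subunit of TFIIA, read 7.21 and 6.92 on the knockout-labelled array and the wild-type array (0.30, local spread 0.26), with Gtf2a2 at 0.19. Its paralogue Gtf2a1l, known from germ cells and near background, was at -0.16.

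In TFIIH, which carries the DNA translocase and the kinase of the polymerase tail, all measured parts lay above 0. Gtf2h1, a core subunit that binds activation domains, was the highest: it read 5.77 on the knockout-labelled array and 4.97 on the wild-type array, 1.75-fold higher (0.80, local spread 0.37), and 22 of its 500 neighbours were higher. Gtf2h3 read 4.90 on the knockout-labelled array and 4.51 on the wild-type array, at least 1.07-fold higher (0.39), Gtf2h5 was at 0.25, and Gtf2h4, at 0.07, turned to -0.04 after the correction for level. The kinase subunits, which are no members by symbol, were alike in direction: cyclin H (Ccnh) read 7.002 on the knockout-labelled array and 6.51 on the wild-type array (0.49), and Cdk7 (0.60) and Mnat1 (0.53) were near background on both. With the translocase Ercc3 (0.20), the 8 measured TFIIH genes had a median of 0.44.

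The wider list of 50 partner genes holds the non-member initiation genes, such as Tbp and the TFIIH and Mediator kinases, together with genes that act after initiation or assemble the polymerase. Of these 47 were measured and 42 passed the filter, 28 of them (66.7%) above 0 with a median of 0.14, and none was 2-fold higher or lower. Without the initiation genes 32 passed the filter, 19 of them above 0 (59.4%), with a median of 0.11 that became 0.01 after the correction for level. Gpn3, a GTPase of polymerase assembly, was the highest (0.99), and Rpap3 (-0.60), Rpap1 (-0.39), Gpn1 (0.28) and Rpap2 (-0.16) of the same step differed in sign, all near background. The elongation factor gene Ell, near background, was the lowest (-0.61), and Ctdp1, a phosphatase of the polymerase tail, read 4.75 on the knockout-labelled array and 5.16 on the wild-type array (-0.42). In the PAF1 elongation complex 4 of 5 subunits lay above 0 as measured, against 58.2% of all genes. Of the 4, Leo1 was near background on both arrays, and Cdc73 and Rtf1 were under the control level on the wild-type array. Rtf1 read 5.25 on the knockout-labelled array and 4.58 on the wild-type array, at least 1.36-fold higher (0.67). The 2 subunits above the control level on both arrays were Paf1 (0.21) and Ctr9 (-0.20). The pausing complex NELF had Nelfe at 0.41, Nelfa at 0.01 (negative after centring and after the correction for level) and Nelfb at -0.26.

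Members' promoters carried some motifs more often than promoters of other measured genes. RefSeq windows were found for 57 of the 68 members past the filter, 69 windows in all. The ETS motif was in 29.0% of them, against 16.9% of the 11247 windows of all genes past the filter and 8.86% of all 32851 windows. The corresponding shares were 21.7%, 13.2% and 7.76% for the NRF1 core, and 21.7%, 8.11% and 6.05% for the YY1 motif. The GC box was in 60.9% of member windows and 60.3% of those of genes past the filter (35.7% of all), CCAAT in 31.9% and 37.4% (37.4% of all), and the TATA box in 13.0% and 7.66% (13.6% of all). Windows of 1 gene can overlap, and a match is no evidence of binding. Of the 57 members, 16 (28.1%) had a start on the opposite strand within 1000 bases upstream, against 18.9% of all genes past the filter, and the median difference was 0.24 for those 16 and 0.21 for the other 41.

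The sorted samples differed in other genes too, and the part of these in the members' differences was not tested. The sort genes Il7r, Kit, Itga4 and Itgb7 and the ILC regulators Id2, Nfil3, Tox and Ets1 were above the control level on both arrays, while Zbtb16 was under it on the knockout-labelled array. Their differences were 1.23 for Id2, 0.65 for Kit, 0.00 for Itga4, -0.14 for Itgb7, -0.58 for Tox, -0.67 for Ets1, -0.70 for Il7r and -0.93 for Nfil3. The summed linear signal of 13 measured T cell genes was 317.1 on the knockout-labelled array and 866.8 on the wild-type array. As measured, 9 of 13 were at least 2-fold lower, against 0.781% of all genes, while Cd4 was at 0.09. Of the 9, Themis and Ptcra were near background on both arrays, and Cd3e and Cd28 were above the control level on both. Cd3d, Cd3g, Cd6, Cd8a and Cd8b1 were under it on the knockout-labelled array, with a lower limit of 1.47 for Cd3d and for Cd6. For 9 B cell genes the sums were 755.1 on the knockout-labelled array and 1373 on the wild-type array, with 4 at least 2-fold lower as measured. Of these 4, Pax5 and Vpreb1 were under the control level on the knockout-labelled array, with lower limits of 1.89 and 1.60. For 7 eosinophil genes the sums were 699.5 on the knockout-labelled array and 1997 on the wild-type array. As measured, 5 were at least 2-fold lower and 2 lay above 0, Ccr3 (0.96) and Siglecf (0.14). Of the 5, Prg3 and Alox15 were under the control level on the knockout-labelled array, with lower limits of 1.07 and 3.10. Ccr3 was under it on the wild-type array, with a lower limit of 1.13, and Siglecf was near background on both. The 9 neutrophil genes, all above the control level on both arrays, summed to 12553.8 on the knockout-labelled array and 11159.5 on the wild-type array. These were the largest of the cell type sums given here. Differences of 4 neutrophil genes lay above 0, among them Ctsg (0.72) and Prtn3 (0.55). The other 5 did not, among them Ltf (-0.55) and Camp (-0.41). For 10 macrophage genes the sums were 543.0 on the knockout-labelled array and 305.6 on the wild-type array, with all 10 above 0. Neither reading of Cd5l, Adgre1, Cd163 or Mertk reached the control level. All 11 measured proliferation genes lay above 0, with a median of 0.21 against 0.15 for their neighbours in level. The Y-linked gene Eif2s3y read 5.18 on the knockout-labelled array and 3.40 on the wild-type array. It was under the control level on the wild-type array, so it was at least 1.30-fold higher. Uty, also Y-linked, read 4.05 and 2.51 on the same arrays, near background on both. Med12, Med14, Taf9b and Taf7l are X-linked.

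**Figure D4:**
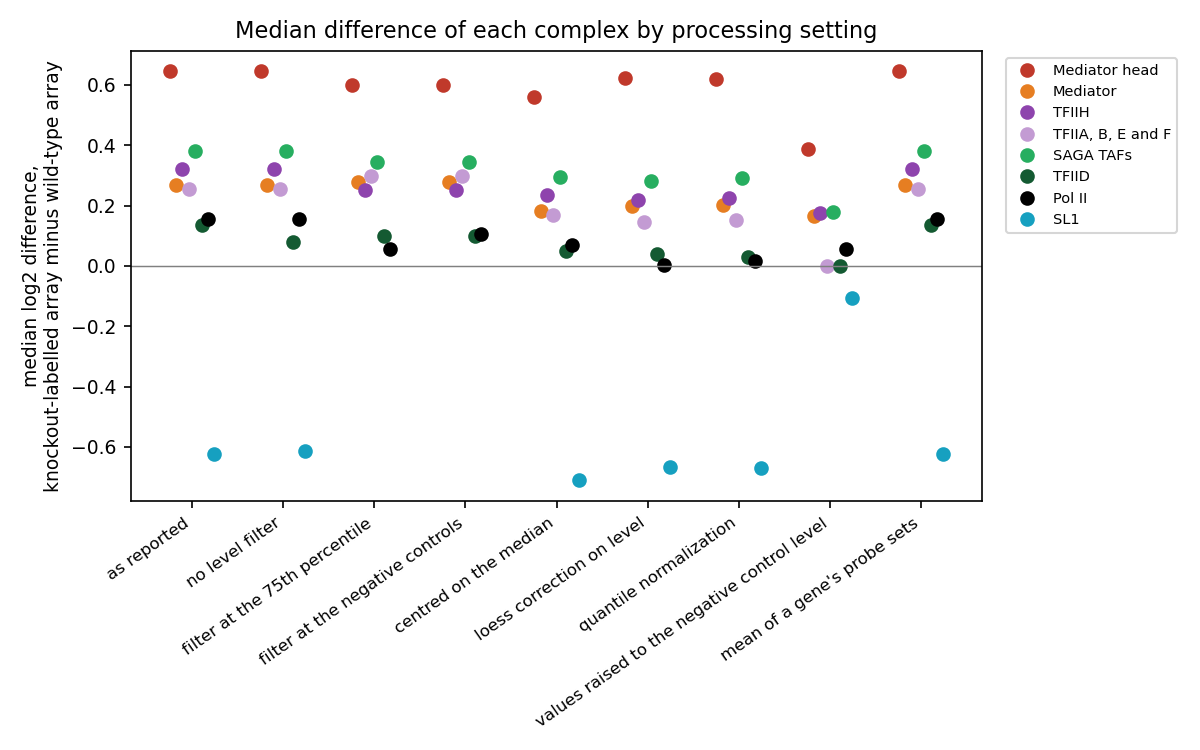
Median log2 difference (knockout-labelled array minus wild-type array) of each complex, and of the Mediator head alone, under each processing setting, where a missing point means that no member passed that filter. The head median lies between 0.39 and 0.65, and the polymerase II and TFIID medians between 0.00 and 0.15.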

How the data were processed

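Gene expression was measured on 2 arrays, 1 per genotype. The authors deposited log2 values per probe set, made with Affymetrix Power Tools and RMA per the submitters' processing notes; RMA corrects background, applies quantile normalization and summarises probes, so shifts in RNA content per cell are hidden. Versions, genome build and scanner signals were not given in the sources used here. Per the design text the array is a Mouse Gene 2.0, but the probe sets carry names of a different Affymetrix mouse platform, whose annotation gave the gene names; all 71 members were found in RefSeq by gene ID. A gene took its probe set of highest mean, and every member has 1. The level filter was the median of all 29129 probe set means, and the 5222 negative controls set the background. Differences were taken without further centring. Members, lists and alternatives were chosen with earlier results of these data known. The naming rule took, per complex, the 3 highest and 3 lowest differences, every member 1.5-fold apart and a fixed set of subunits; other names and motifs were added after values were seen. Grouping by Mediator module follows structures of the mammalian complex. The scripts were tested on simulated data. Python 3.11.15 with numpy 2.4.6, pandas 2.3.3 and statsmodels 0.14.6 was used. The number of arrays limits the precision.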

Additional observations from a re-analysis of the deposited data

How the results depend on the processing

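Of 301 summary values recomputed under the alternatives (other level filters, centring, loess, quantile normalization, raised values, probe set means and a 1.5-fold threshold), 267 stayed within the interval or range over members (medians) or within 1.5 times (counts). Part of this count was fixed in advance. Every member has 1 probe set, so probe set means left the members' values as they were. Most 2-fold counts were 0 to begin with and stayed 0, so the 267 says little about stability. The alternatives for the head module alone were added after seeing the data. The head median was 0.65, or 0.56 after centring and 0.39 when all values were raised to the control level, where Med8, Med18, Taf11, Gtf2f2 and Taf1c were at 0.00. The stricter filters, at the 75th percentile or at the negative controls, both left 2 head subunits above 0, 1 SAGA TAF, 3 genes of TFIIA, B, E and F and 5 of TFIID, of 2, 1, 3 and 8 kept, and removed Taf11, so that 0 TFIID genes were 2-fold higher. Raised values gave 3 of 8 and 5 of 13 above 0 for TFIIA, B, E and F and for TFIID, and 0 TFIID genes 2-fold higher. No SL1 gene passed the stricter filters. The SAGA TAF median was 0.30 after centring, 0.28 after loess, 0.29 after quantile normalization and 0.18 with raised values; for SL1 these were -0.71, -0.67, -0.67 and -0.11, and without a level filter 1 SL1 gene of 3 lay above 0. At 1.5-fold as measured, 7 Mediator genes (5 of the head), 1 gene of TFIIA, B, E and F and 1 of TFIIH were higher and 2 of SL1 lower. For partner genes, 1 was 2-fold higher after loess and after quantile normalization, 18 of 25 lay above 0 with the filter at the 75th percentile, and the median was 0.00 with raised values. Under centring, loess or quantile normalization, 7 of 68 members (Gtf2h4, Med1, Med15, Med26, Polr2f, Taf2 and Taf4) changed sign, from differences of 0.11 or less, as did 5 of 42 partner genes (Aff1, Ccnc, Cdk19, Nelfa and Ssu72), from 0.12 or less. The causes were not tested. Below the control level the arrays give no order of genes.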

Other observations

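The TFIIIC and TFIIIA genes of RNA polymerase III transcription, 7 measured, were chosen after their values were seen. Of these 6 lay above 0, with a median of 0.27. Gtf3c6 was at 0.50, with 5.81 on the knockout-labelled array and 5.32 on the wild-type array, and Gtf3c3 (0.91) and Gtf3c4 (0.89) were near background on both arrays. Of 13 other SAGA genes past the filter, also listed after seeing values, 12 lay above 0 with a median of 0.23. Supt3, a SAGA subunit with a histone fold, read 4.92 on the knockout-labelled array and 3.92 on the wild-type array, where it was under the control level, and was at least 1.09-fold higher (1.006 as measured). Sgf29, the SAGA subunit that reads histone methylation, read 6.88 on the knockout-labelled array and 6.27 on the wild-type array (0.61).

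As deposited, 798 of 29129 probe sets (2.74%) hold exactly the same value on both arrays. Among the 10881 genes past the level filter there are 81 such genes, and 1 of them, Taf7, belongs to TFIID.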
